A study of Homo sapiens with 45 samples.

Results

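ChIP-seq in HEK293T cells, a human embryonic kidney line, gave the places occupied by TET1, and the regions described here were listed for TET1 after treatment with BPK25 but not in the solvent control. They are the distinct regions of the BPK25 TET1 peak list that overlapped no region of the DMSO TET1 list by 1 bp or more. They are called BPK25-only TET1 regions below, a name that sets BPK25 against DMSO and leaves the third treatment aside. There were 278 BPK25-only TET1 regions, which is 35.8% of the 777 regions of the BPK25 TET1 list. They are a small part of the 53743 distinct regions in the 12 peak lists of the series. The other 499 regions of the BPK25 TET1 list overlapped a DMSO TET1 region and are called the shared TET1 regions.

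The groups used were cells given 30 µM BPK25 for 72 h, cells given 0.5 mM IAA for 72 h, and cells given the solvent DMSO for 72 h. Each group was profiled with antibodies against CTCF, MBD2, MBD3 and TET1, with 3 libraries per treatment and antibody and 3 input libraries per treatment. The library titles name HEK293T. The labels' protocols mention HEK293T and edited cells derived from it, and the labels do not say which libraries, if any, came from the edited cells. BPK25 has been reported elsewhere to lower the amount of subunits of the NuRD complex, and IAA is the plant hormone auxin, which serves to degrade proteins tagged with a matching degron.

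TET1 oxidises 5-methylcytosine in DNA, the first step of active demethylation. CTCF is a zinc finger protein that binds a long DNA motif at insulators and chromatin loop anchors, and its binding at some sites is blocked by cytosine methylation. MBD2 and MBD3 are mutually exclusive subunits of NuRD, a complex that couples nucleosome remodelling to histone deacetylation. MBD2 binds methylated CpG sites, whereas mammalian MBD3 has lost most of that preference. The series is titled after a role of NuRD in chromatin remodelling at CTCF sites, so the question for these regions is which proteins were already listed there in DMSO.

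The authors pooled the 3 libraries of a treatment and antibody before calling peaks, so each value below comes from 1 pooled list, has no replicate error, and no difference was tested. Intervals are 95% Wilson intervals and cover counting over regions only. Under BPK25, CTCF had 375 regions, MBD2 510, MBD3 374 and TET1 777, against 17440, 15991, 10137 and 7211 regions in the DMSO lists of those antibodies. The lowest local background of a list, a measure of its depth recovered from the deposited fold and significance, was 1.16 fragments in the BPK25 TET1 list and 5.68 fragments in the DMSO TET1 list. The BPK25 list was thus at 20.4% of the DMSO background. Membership was set by the 2 TET1 lists, and TET1 values of the members are therefore given as a description.

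BPK25-only TET1 regions lay mostly where CTCF, MBD2 or MBD3 was already listed in DMSO. A DMSO CTCF region was present at 189 of the 278 (68.0%, interval 62.3 to 73.2), against 86.7% of all BPK25 TET1 regions. A DMSO MBD2 region was present at 190 (68.3%, 62.7 to 73.5), against 87.3% of all BPK25 TET1 regions. A DMSO MBD3 region was present at 137 (49.3%, 43.5 to 55.1), against 77.3% of all BPK25 TET1 regions. At least 1 of the 3 proteins was listed at 236 BPK25-only TET1 regions, or 84.9% (80.2 to 88.6), against 94.2% of all BPK25 TET1 regions. Each of these 4 shares was thus below that of the whole BPK25 TET1 list.

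The shared TET1 regions lay at those lists more often. Of the 499, 97.2% (95.3 to 98.3) were at a DMSO CTCF region, 97.8% (96.1 to 98.8) at a DMSO MBD2 region and 93.0% (90.4 to 94.9) at a DMSO MBD3 region. Of the 7211 TET1 regions of the DMSO list, 82.1% (81.2 to 83.0) were at a CTCF region, 79.5% at an MBD2 region and 63.4% at an MBD3 region. The BPK25-only TET1 regions were thus below both sets for each of the 3 proteins, with intervals that do not overlap. DMSO TET1 overlap chose the 2 sets and was itself frequent at sites of the other proteins in DMSO, so the comparison with the shared regions is a description only.

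**Figure D1:**
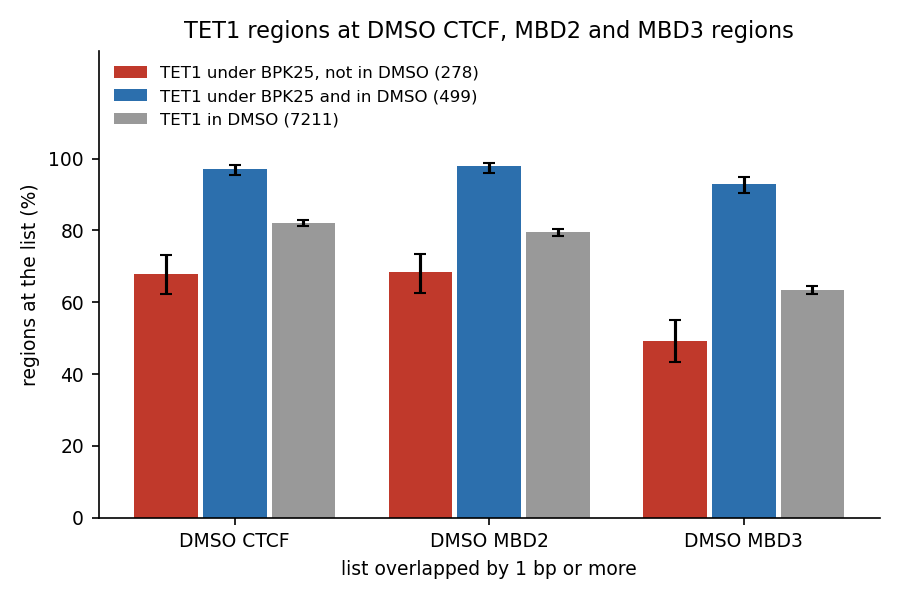
Bars give the share of regions (%, y axis) that overlap a DMSO CTCF, MBD2 or MBD3 region (x axis) for BPK25-only TET1 regions, shared TET1 regions and all DMSO TET1 regions, with 95% Wilson intervals over regions. The BPK25-only bars stand at 68.0%, 68.3% and 49.3% and are the lowest of each trio.

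The shares depended on how long the DMSO lists were. With the CTCF, MBD2 and MBD3 lists shortened to the 7211 regions of highest significance, the length of the DMSO TET1 list, 34.2%, 34.9% and 36.3% of BPK25-only TET1 regions had a CTCF, MBD2 and MBD3 region, and 44.6% had none. At equal list length the shares for CTCF and MBD2 were thus not above the share for MBD3. No share of all BPK25 TET1 regions at the shortened lists was set beside these values. They are therefore not read as particular to BPK25-only TET1 regions.

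All 8 combinations of the 3 DMSO lists occurred among the BPK25-only TET1 regions. The largest set, 97 regions or 34.9% (29.5 to 40.7), had CTCF, MBD2 and MBD3 together, against 70.8% of all BPK25 TET1 regions. CTCF with MBD2 was found at 54 regions (19.4%), CTCF alone at 22 (7.91%) and CTCF with MBD3 at 16 (5.76%). Outside CTCF, MBD2 alone was found at 23 regions (8.27%), MBD2 with MBD3 at 16 (5.76%) and MBD3 alone at 8 (2.88%). A total of 47 regions, or 16.9% (13.0 to 21.8), thus carried an MBD protein without CTCF, against 7.46% of all BPK25 TET1 regions and 11 of the 499 shared regions, or 2.20% (1.24 to 3.90). None of the 3 proteins was listed at 42 regions (15.1%, 11.4 to 19.8), against 5.79% of all BPK25 TET1 regions and 3 of the 499 shared regions.

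**Figure D2:**
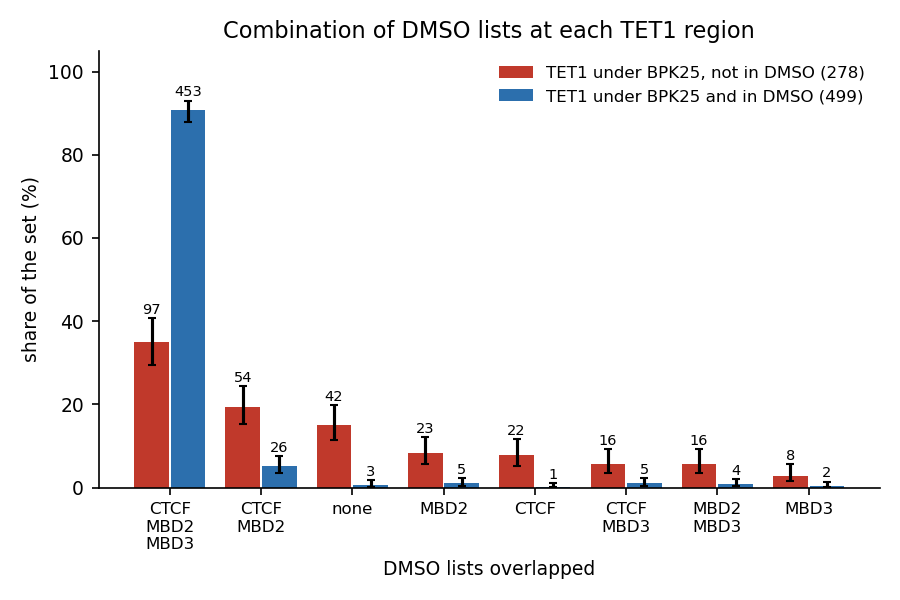
Bars give the share of each set (%, y axis) by the combination of DMSO lists that a TET1 region overlaps (x axis), with 95% Wilson intervals and the number of regions above each bar. BPK25-only TET1 regions spread over all combinations, with 97 at all 3 proteins and 42 at none, while 453 of the 499 shared regions lie at all 3.

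At the 189 BPK25-only TET1 regions with DMSO CTCF, MBD2 was also listed at 151 (79.9%, 73.6 to 85.0) and MBD3 at 113 (59.8%, 52.7 to 66.5). Among all 11530 DMSO CTCF regions that had no DMSO TET1 region, MBD2 was listed at 56.4% and MBD3 at 32.8%. CTCF sites of BPK25-only TET1 regions thus carried either NuRD subunit in DMSO more often than CTCF sites without DMSO TET1 as a whole. Both subunits together were listed at 97 of the 189. That is a smaller part than among all BPK25 TET1 regions with DMSO CTCF, 550 of 674, or the shared ones, 453 of 485.

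TET1 and the DMSO proteins peaked at nearly the same base. The TET1 summit of a BPK25-only region lay a median of 20 bp from the nearest DMSO CTCF summit, 20 bp from the nearest DMSO MBD2 summit and 20 bp from the nearest DMSO MBD3 summit, at the regions that overlapped each list. Of the 189 regions with CTCF, 157 (83.1%, 77.1 to 87.7) had the summits within 50 bp. Shared TET1 regions had a median of 17 bp to the CTCF summit, and 81.6% (78.0 to 84.8) were within 50 bp of it. The intervals of those shares overlap.

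In the DMSO CTCF list, the sites of BPK25-only TET1 regions were of ordinary strength. Their median CTCF fold enrichment, the authors' ratio at the summit of pileup plus 1 to local background plus 1, was 4.23 (quartiles 3.58 and 5.24), against 4.31 for all 17440 DMSO CTCF regions and 4.07 for the 11530 without DMSO TET1. The CTCF sites of shared TET1 regions had a median DMSO CTCF fold of 5.61 (4.08 and 7.34). The same order held for the NuRD subunits. DMSO MBD2 fold had a median of 4.37 at BPK25-only TET1 regions and 5.95 at shared ones, against 4.54 over the whole MBD2 list. DMSO MBD3 fold had a median of 3.77 at BPK25-only TET1 regions and 4.72 at shared ones, against 3.84 over the whole MBD3 list.

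Only a small share of the DMSO sites without TET1 could have a BPK25-only TET1 region. There were 278 of these regions for 5570 to 11530 sites per list, so the low level of the shares follows from the counts. BPK25-only TET1 regions met 189 of the 11530 DMSO CTCF regions without DMSO TET1 (1.64%, 1.42 to 1.89), 188 of 10272 such MBD2 regions (1.83%, 1.59 to 2.11) and 137 of 5570 such MBD3 regions (2.46%, 2.08 to 2.90). The share at CTCF regions differed with the NuRD subunits listed there. It was 3.41% (2.80 to 4.14) of 2847 CTCF regions with both MBD2 and MBD3, 1.70% (1.05 to 2.75) of 940 with MBD3 only, 1.48% (1.13 to 1.92) of 3660 with MBD2 only and 0.539% (0.356 to 0.815) of 4083 with neither, against the background of 1.64%. Where the CTCF list had a background up to 3 times its lowest value, the shares were 2.93%, 1.46%, 1.21% and 0.497% in the same order of partners. Where it was higher, they were 7.67%, 3.77%, 3.97% and 1.16%. A leaning to CTCF sites with both subunits was not particular to BPK25-only TET1 regions. Of the 485 shared TET1 regions with DMSO CTCF, 453 had both subunits and 1 had neither.

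The point values kept the order by NuRD subunits at each level of CTCF enrichment. In the lowest quartile of DMSO CTCF fold, 3.64% (2.25 to 5.82) of CTCF regions with both subunits had a BPK25-only TET1 region, as did 1.37% with 1 subunit and 0.537% (0.292 to 0.986) with neither. In the second quartile the shares were 3.08%, 1.87% and 0.706%, and in the third 2.58%, 1.52% and 0.384%. In the highest quartile they were 4.40% (3.21 to 6.01), 1.12% and 0.325% (0.0573 to 1.82), the last from 1 of 308 regions. In each quartile the interval with both subunits lay above the interval with neither. With both subunits, the 4 quartiles had overlapping intervals, so no order by CTCF fold was read from them. The MBD2 and MBD3 lists differ in detection limit, and the shares carry that difference.

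**Figure D3:**
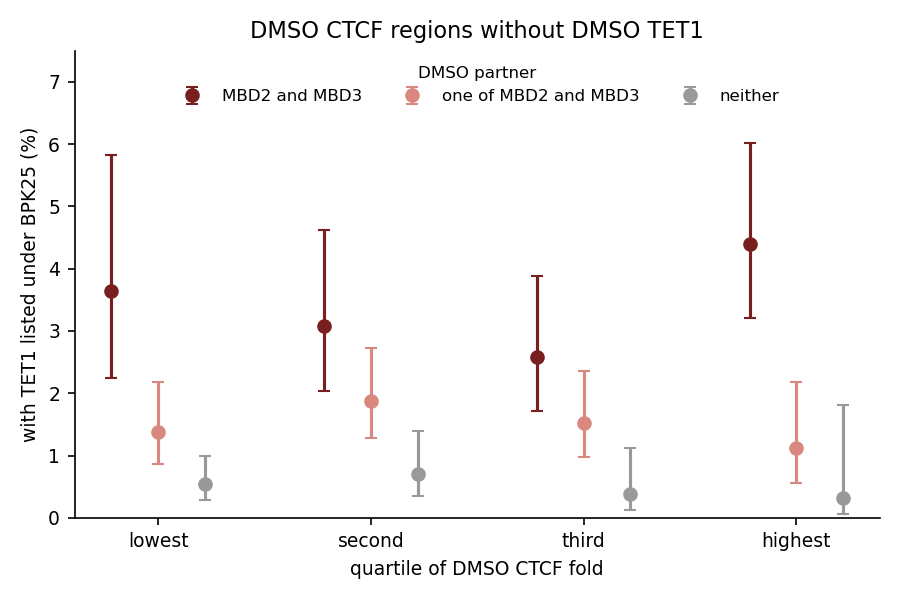
Points give the share of DMSO CTCF regions without DMSO TET1 that had a TET1 region under BPK25 (%, y axis) by quartile of DMSO CTCF fold (x axis, low to high) and by the NuRD subunits listed in DMSO, with 95% Wilson intervals over regions. In each quartile the points for MBD2 and MBD3 together, at 2.58% to 4.40%, are above those for neither, at 0.325% to 0.706%.

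BPK25-only TET1 regions were narrow and low. Their median width was 219 bp, against 235 bp for shared TET1 regions, and 2 of the 278 held more than 1 sub-peak. The authors' TET1 fold had a median of 5.04 (quartiles 4.11 and 5.89) in BPK25-only and 5.48 (4.42 and 6.75) in shared regions. The median recovered pileup at the summit was 13 fragments (quartiles 11 and 16), against 19 fragments (14 and 26) in shared regions. The median −log10 q was 4.07, against 6.57 in shared regions. Split by −log10 q into 4 parts, from the least to the most significant, the BPK25 TET1 list held 55.9%, 45.4%, 29.9% and 11.9% BPK25-only regions. Of the 23 BPK25-only regions in the most significant part, 82.6% were at a DMSO CTCF region, against 54.1% of the 109 in the least significant part. Neither the share over all BPK25 TET1 regions of each part nor an interval was computed. The rise is therefore not read as particular to BPK25-only regions.

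**Figure D4:**
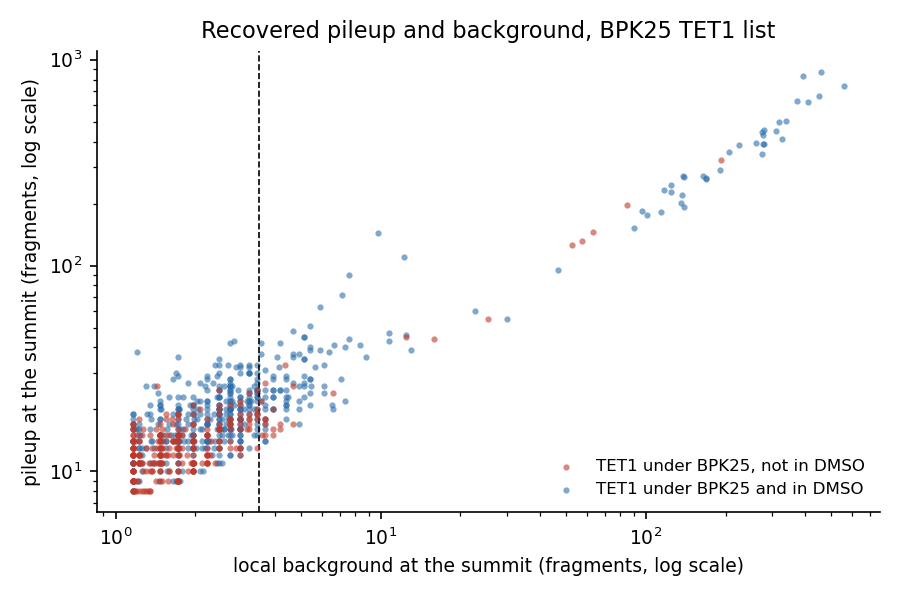
Each point is a region of the BPK25 TET1 list, with its recovered local background (fragments, x axis, log scale) and pileup at the summit (fragments, y axis, log scale), for BPK25-only and shared TET1 regions. The dashed line marks 3 times the lowest background, and 24 BPK25-only and 123 shared regions lie to its right.

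The pileups of the 2 TET1 lists were also compared at the shared regions. Pileup at a listed region holds enrichment as well as depth, and these regions had passed the threshold of both lists. At 375 shared TET1 regions whose local background did not exceed 3 times the lowest, the DMSO pileup was a median of 3.21 times the BPK25 pileup (quartiles 2.67 and 3.79). The ratio of the lowest backgrounds was higher, at 4.90. The median pileup of these shared regions was 17 fragments under BPK25 and 54 fragments in DMSO. The 254 BPK25-only TET1 regions with such a background had a median pileup of 13 fragments under BPK25. They have no DMSO TET1 value by the rule that chose them, so no ratio can be given for them. DMSO TET1 signal below the authors' threshold was not analysed here.

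BPK25-only TET1 regions lay at a wide range of distances from DMSO TET1 regions, and no background distance was computed to call them near or far. The distance to the nearest one had a median of 98223 bp, and 136 regions (48.9%) were over 100000 bp away. Within 10000 bp lay 33 regions (11.9%), and within 1000 bp lay 6. The nearest was 309 bp away and the sixth nearest 771 bp away. On the other side of the rule, the shared TET1 region with the shortest overlap shared 102 bp with a DMSO TET1 region, and the sixth shortest overlap was 117 bp, so no region was placed by an overlap of under 50 bp.

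The BPK25-only TET1 regions of highest fold at all 3 DMSO proteins had between 17 and 25 TET1 fragments. The highest was on chromosome 1 from 13106578 to 13106829, in build hg19, with a TET1 fold of 8.54 and a pileup of 18 fragments. Its DMSO folds were 6.28 for CTCF, 4.98 for MBD2 and 4.86 for MBD3, and its nearest DMSO TET1 region was 110134 bp away. A region on chromosome 19 from 43297660 to 43297861 had a TET1 fold of 8.34, with DMSO folds of 5.01, 4.24 and 3.69 for CTCF, MBD2 and MBD3. Its nearest DMSO TET1 region was 2051 bp away. A region on chromosome 14 from 69596062 to 69596289 had a TET1 fold of 7.51 on 25 fragments, and its summit lay 5 bp from the DMSO CTCF summit and 1 bp from the DMSO MBD2 summit. A region on chromosome 22 from 22818484 to 22818741 had a TET1 fold of 7.47 at lower DMSO folds of 2.70 for CTCF, 2.40 for MBD2 and 2.53 for MBD3.

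Of the named regions, the one of highest TET1 fold lay at CTCF with MBD3. It was on chromosome 4 from 178476223 to 178476457 and had a TET1 fold of 11.1 on 26 fragments. Its DMSO folds were 5.77 for CTCF and 3.71 for MBD3, and it was 304674 bp from a DMSO TET1 region. At CTCF with MBD2, a region on chromosome 1 from 186451896 to 186452171 had a TET1 fold of 7.87, a DMSO CTCF fold of 4.76 and a DMSO MBD2 fold of 5.34. With CTCF as the only DMSO protein, a region on chromosome 2 from 104575736 to 104575957 had a TET1 fold of 7.86 and a CTCF fold of 3.58. Another on chromosome 16 from 11626099 to 11626322 had a TET1 fold of 7.43 and a CTCF fold of 5.87. Over all 92 regions with CTCF and at most 1 NuRD subunit, the median TET1 fold was 4.92 and 31.5% had a −log10 q of 5 or more, against 5.32 and 46.4% for the 97 regions at all 3 proteins.

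The 47 regions with an MBD protein but no CTCF had a median TET1 fold of 5.04, and 27.7% had a −log10 q of 5 or more. The highest of those named was on chromosome 12 from 10292683 to 10292894, with a TET1 fold of 8.34 and a DMSO MBD2 fold of 4.47. A region on chromosome 13 from 21069320 to 21069533 had a TET1 fold of 7.87 with DMSO folds of 4.20 for MBD2 and 4.13 for MBD3. One on chromosome 7 from 137139009 to 137139239 had a TET1 fold of 6.95 and a higher DMSO MBD2 fold of 6.58. On chromosome 1 from 167237126 to 167237347, TET1 fold was 7.51 and DMSO MBD2 fold 4.45. Their TET1 summits were 4 to 28 bp from the MBD2 and MBD3 summits.

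The 42 BPK25-only TET1 regions outside all DMSO lists were the weakest set. Their median TET1 fold was 4.41, their median pileup 11 fragments and their median −log10 q 2.45, against 5.32, 14 fragments and 4.95 for the 97 regions at all 3 proteins. A −log10 q of 5 or more was reached by 3 of the 42 (7.14%), compared with 45 of the 97 (46.4%). On chromosomes with DMSO regions, 41 of them had a median distance of 25604 bp to the nearest DMSO CTCF, MBD2 or MBD3 region, and 3 were within 1000 bp. Those of highest fold that met the rule for named regions were on chromosome 14 from 95662640 to 95662853, with a fold of 6.08 on 13 fragments, and on chromosome 1 from 120205862 to 120206061, with a fold of 5.89 on 15 fragments.

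BPK25-only TET1 regions were rarely listed for another protein under BPK25. A BPK25 MBD2 region was present at 11 (3.96%, 2.22 to 6.95), against 16.6% of all BPK25 TET1 regions. BPK25 CTCF and MBD3 regions were each present at 4 (1.44%, 0.561 to 3.64), against 9.78% and 9.52% of all BPK25 TET1 regions. Of the shared TET1 regions, 23.6% (20.1 to 27.6) had a BPK25 MBD2 region, 14.4% a BPK25 CTCF region and 14.0% a BPK25 MBD3 region. The BPK25 lists of CTCF and MBD3 were at 5.89% and 7.92% of their DMSO background, and that of MBD2 was at 49.5%. Signal below the thresholds of the 3 lists was not analysed here.

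The BPK25-only TET1 regions with another protein under BPK25 often had raised background. Of the 15 regions in at least 1 other BPK25 list, 9 had a local background over 3 times the lowest, compared with 24 of all 278 BPK25-only regions and 123 of 498 shared regions with a recovered background. One on chromosome X from 58580603 to 58581076 was listed for all 4 proteins under BPK25. It had a TET1 fold of 2.37, a pileup of 126 fragments over a local background of 52.6, and lay 1217 bp from a DMSO TET1 region. One on chromosome 17 from 22254697 to 22255317 had a TET1 fold of 1.70, with 327 fragments over a background of 192, and was also listed for CTCF and MBD3 under BPK25. By contrast, a region on chromosome 6 from 117877123 to 117877370 had 14 fragments over a background of 1.47, a TET1 fold of 6.07 and a BPK25 MBD2 fold of 5.24, with DMSO folds of 5.31 for CTCF, 4.84 for MBD2 and 4.97 for MBD3. The part of raised background in these overlaps was not tested.

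Under IAA, hardly any BPK25-only TET1 region was listed, but the IAA lists were short. They held 595 CTCF, 138 MBD2, 95 MBD3 and 100 TET1 regions, which limits how many overlaps could occur. IAA CTCF and IAA MBD2 regions were each present at 2 (0.719%), against 9.4% and 5.28% of all BPK25 TET1 regions. An IAA TET1 region was present at 1 (0.360%), against 4.76%. That region, on chromosome 17 from 22254697 to 22255317, had a raised background of 192 fragments and also met an IAA CTCF and an IAA MBD2 region. No IAA MBD3 region was present (0 of 278, which allows a share of up to 1.08% at 3 regions of 278, and 1.36% by the Wilson upper bound), against 3.86%. At least 1 IAA list was met by 3 BPK25-only regions (1.08%, 0.368 to 3.12) and by 75 shared regions (15.0%, 12.2 to 18.4), against 10.0% of all BPK25 TET1 regions.

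Regions of the same kind for the other antibodies lay at DMSO sites far less often. Of the BPK25-only TET1 regions, 84.9% (80.2 to 88.6) were at a DMSO region of another antibody. The share was 3.95% (1.82 to 8.34) of the 152 CTCF regions under BPK25 without a DMSO CTCF region, 15.8% (11.9 to 20.5) of the 273 such MBD2 regions and 14.0% (9.87 to 19.5) of the 200 such MBD3 regions. On chromosomes 1 to 22 and X, with the background limited to 3 times the lowest, TET1 gave 85.3%, CTCF 3.55%, MBD2 12.6% and MBD3 9.04%. With a −log10 q of 5 or more, a threshold applied to this comparison after the values were seen, they were 96.7% (90.7 to 98.9) of 90 TET1, 8.33% (2.32 to 25.8) of 24 CTCF, 9.27% (5.60 to 15.0) of 151 MBD2 and 37.9% (22.7 to 56.0) of 29 MBD3 regions.

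These lists differed in depth and in the partners they were set against. The median pileup of such regions was 13 fragments for TET1, 6 for CTCF, 18 for MBD2 and 7 for MBD3, and the lowest background was 1.16, 0.256, 1.86 and 0.374 fragments. Set against TET1 regions were DMSO lists of 43568 regions together, against CTCF 33339, against MBD2 34788 and against MBD3 40642. The rule also left out regions at the antibody's own DMSO list, which often shares sites with the other lists. That list held 7211 regions for TET1, 17440 for CTCF, 15991 for MBD2 and 10137 for MBD3. It thus left the fewest sites out for TET1 and the most for CTCF. The part of depth, partner lists and this rule in the difference was not tested.

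**Figure D5:**
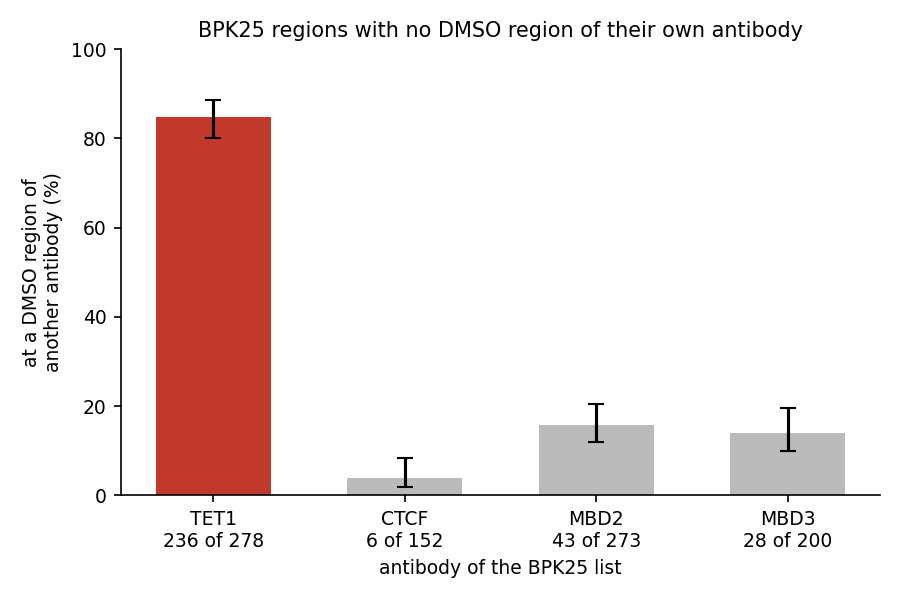
Bars give the share of BPK25 regions without a DMSO region of their own antibody that overlap a DMSO region of another antibody (%, y axis), for each BPK25 list (x axis), with 95% Wilson intervals over regions. The TET1 bar stands at 84.9%, above 3.95%, 15.8% and 14.0% for CTCF, MBD2 and MBD3.

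The BPK25-only TET1 regions were spread over the genome. They lay on chromosomes 1 to 22 and X in 271 of 278 cases, and 3 pairs of neighbours were within 10000 bp of each other. Chromosome 1 held 42, which is 38.2% of the 110 BPK25 TET1 regions there. The share was 16.4% (8.86 to 28.3) of 55 regions on chromosome 17 and 61.5% (42.5 to 77.6) of 26 on chromosome 3, the extremes among chromosomes with at least 26 regions of the BPK25 TET1 list. These 2 were picked from many chromosomes after their values were seen.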

How the data were processed

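The data are 12 peak lists, 1 for each of 3 treatments and 4 antibodies, which the authors made by pooling the 3 replicates, per the labels. Per the submitters' processing notes, the tools included Bowtie2 2.3.4, SAMtools 1.9 and MACS2 2.1.2, with genome build hg19. How the caller was set is not stated in the labels. In the deposited lists, fold enrichment is a ratio on a linear scale, which the values fit as summit pileup plus 1 over local background plus 1. Significance is deposited as −log10 p and −log10 q (p-value and q-value), beside the summit's offset. Fold and significance are the authors' own and were used within a list, for description, ranking and filtering.

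Sub-peaks of 1 start and end were merged, and the one of largest −log10 p gave the region's values. Pileup and local background were solved per region from that fold and −log10 p, read as a Poisson upper tail, within 0.02%. In the BPK25 TET1 list 776 of 777 regions were solved, and in the DMSO TET1 list 99.2%. No solution was sought for −log10 p over 150. Depth per library is unknown from peak lists, and the lowest background of a list served as its relative depth. The step was run on simulated data made with the same formula, over a narrower range of pileup and background than the lists hold. That run checks the solving only and does not show that the deposited values follow the formula.

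Members, lists and comparisons were chosen with earlier results of these data known. Named regions have −log10 q of at least 5 and lie on chromosomes 1 to 22 and X, leaving out 8. They are the 4 of highest TET1 fold in each of 4 classes of DMSO overlap (2 met this in the class without overlap), the 2 of highest fold at each other BPK25 list and the 3 nearest to a DMSO TET1 region, and not all are printed. Alternatives changed thresholds, overlap rules, DMSO list length and the set of regions. Genes and sequences at the regions were not analysed here, because no genome or annotation of build hg19 was used. Scripts ran in Python 3.11.15 with SciPy 1.17.1, pandas 2.3.3, numpy 2.4.6 and, for plots, matplotlib 3.10.9.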

Additional observations from a re-analysis of the deposited data

How the results depend on the processing

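The shares at DMSO lists moved most with thresholds and list length. At DMSO CTCF, MBD2, MBD3 and none of the 3 lay 82.2%, 84.4%, 62.2% and 3.33% of the 90 BPK25-only TET1 regions with a −log10 q of 5 or more, whose median fold was 6.22. The shares were 74.5%, 78.0%, 56.7% and 8.51% of the 141 regions with a fold of 5 or more, whose median fold was 5.89. With only DMSO regions of −log10 q of 5 or more they were 61.9%, 61.5%, 38.5% and 22.7%. With the DMSO lists shortened to the length of the DMSO TET1 list they were 34.2%, 34.9%, 36.3% and 44.6%. In these alternatives fewer regions pass by construction. In each of the other 6 alternatives per share, among them chromosomes 1 to 22 and X, summits within 150 bp and leaving out raised background, the share stayed within the interval of the reported value. The number of BPK25-only TET1 regions was 254 to 317 under the other 6 alternatives for it. Motif content and distance to start sites were planned and not run, because no hg19 genome or annotation was used. No paired analysis was possible because the lists pool the replicates, and for the same reason no replicate could be left out. Low pileups, a median of 13 fragments, limit each single region.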
